A study of Mus musculus with 4 samples.

Results

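The recent thymic output genes examined here are Sox4, Itm2a, Cd24a, Tox, Hivep3, Ets2, Themis, Rag1 and Dntt, 9 genes of the 32285 features in the count tables, chosen by name as genes that are high in developing thymocytes or in T cells that have just left the thymus. They were followed in regulatory T (Treg) cells, the CD4 T cells that express Foxp3 and restrain immune responses, from mouse liver and spleen. The 4 libraries came from C57BL/6 mice in which GFP reports Foxp3: 7-week liver, 7-week spleen, neonatal (12-day) liver and neonatal spleen, with 1 library in each group. All groups were enriched for CD4 on beads, sorted as CD4+ Foxp3GFP+ cells and profiled with the 10x Genomics single-cell 5' kit. The series describes the 12-day mice as Foxp3GFP-Cre animals that also carry a Rosa26 loxP-Stop-loxP-YFP reporter, so Cre is made in Foxp3-expressing cells, and it does not give that genotype for the 7-week mice. The sex and the number of mice per library are not given in the labels, and the 7-week samples carry the stage label "aged".

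T cells are made in the thymus, where precursors rearrange their receptor genes, are selected on self peptides and then leave for the blood. Rag1 encodes a subunit of the recombinase that cuts the receptor genes, and Dntt encodes terminal transferase, which adds bases at the joins. Both are shut off when selection ends, whereas other genes of the late thymus decline gradually, so that cells that left the thymus a short time ago still carry some of their RNA. Neonatal mice are seeded with T cells from the thymus, and Treg cells made in that window are known to persist.

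After filtering, the libraries held 2375 to 5681 cells and 7127021 to 30096617 unique molecular identifiers (UMIs, each counting 1 captured RNA molecule). The median UMIs per cell were 2649 and 2905 in 7-week liver and spleen, against 4415 and 4524 in neonatal liver and spleen, so shares of cells are given after thinning each cell to 1000 UMIs. Foxp3 stood at 409 to 459 UMIs per 1000000 (CPM) in all 4 libraries. Between 23 and 91 cell barcodes were shared by a pair of libraries. Levels are UMIs summed over the cells of a library, with exact 95% Poisson intervals, and ratios carry exact conditional binomial intervals. These intervals cover counting error only. With 1 library per group, cells are not replicates and no difference has a test or a p-value. A lower level in a library can reflect fewer cells with the RNA or less RNA per cell.

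The sequences before the starts of Sox4 and Itm2a are shown because these were the 1 pair of members found in the same cells more often than depth would give in 3 of the 4 libraries, as described below. Each is the 250 bases before the RefSeq start on build GRCm38.p6, 5′ to 3′ on the gene's strand (minus for both), at chr13:28953700-28953949 for Sox4 and chrX:107403361-107403610 for Itm2a. Capitals mark the E-box, the motif CANNTG read by E proteins, which reads the same on both strands.
Sox4: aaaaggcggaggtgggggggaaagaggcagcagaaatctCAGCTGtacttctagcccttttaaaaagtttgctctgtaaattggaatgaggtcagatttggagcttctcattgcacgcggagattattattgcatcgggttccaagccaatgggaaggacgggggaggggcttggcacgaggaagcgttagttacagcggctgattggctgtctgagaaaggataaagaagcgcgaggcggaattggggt
Itm2a: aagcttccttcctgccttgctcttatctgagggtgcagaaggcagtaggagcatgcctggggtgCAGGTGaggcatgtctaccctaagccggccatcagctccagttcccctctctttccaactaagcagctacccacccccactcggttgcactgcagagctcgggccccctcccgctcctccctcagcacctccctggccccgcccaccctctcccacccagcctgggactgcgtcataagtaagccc
Each window held 1 E-box, CAGCTG starting 211 bases before the Sox4 start and CAGGTG 186 bases before the Itm2a start. Of 27025 RefSeq promoter windows of this length, 66.0% held at least 1, so the match does not set these genes apart. RefSeq windows were at hand for 7 of the 9 members. The window of Ets2 held no E-box, and those of Rag1 and Dntt held 3 each, a number reached by 12.1% of windows.

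The recombination genes were at or near 0. Rag1 (ENSMUSG00000061311; GRCm38 chromosome 2, 101638282 to 101649501) had 0 UMIs in the kept cells of every library, where 3 UMIs would be 0.421, 0.160, 0.103 and 0.0997 CPM in 7-week liver, 7-week spleen, neonatal liver and neonatal spleen. Its 1 UMI in all deposited barcodes lay in a neonatal liver barcode of a cluster led by the B cell gene Cd79a, and that barcode also held Cd79a and Vpreb3, a gene of B cell precursors. Dntt (ENSMUSG00000025014; chromosome 19, 41029275 to 41059525) had 3, 3, 0 and 5 UMIs in the same order, spread over 3, 3, 0 and 4 cells. Of these 10 cells with Dntt, 9 held a Cd3e UMI and none a Cd79a UMI. Rag1 RNA was therefore not detectable in the kept cells at this depth, and Dntt RNA was present in too few cells to compare the groups.

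Other genes of the immature thymocyte were low too. A list of 8 markers for CD4 CD8 double-positive thymocytes summed to 30.9 CPM in 7-week liver, 25.5 in 7-week spleen, 12.3 in neonatal liver and 21.2 in neonatal spleen. Cd8b1, a chain of the CD8 coreceptor that other T cells also make, gave most of this sum, with 19.5, 18.4, 10.6 and 17.7 CPM. Rag2, the partner of Rag1, had 1 UMI in neonatal liver and none elsewhere. Ptcra, which encodes the pre-receptor alpha chain, had 1 UMI in neonatal spleen and none elsewhere. The label of recent thymic output thus rests in these libraries on Sox4, Itm2a, Cd24a, Tox, Hivep3, Ets2 and Themis, which are also known to be used by mature or stimulated T cells.

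Itm2a (ENSMUSG00000031239; chromosome X, 107397099 to 107403376) encodes a membrane protein that is switched on in thymocytes at positive selection. Its level was 43.6 CPM [38.9 to 48.8] in 7-week liver and 79.9 CPM [75.9 to 84.0] in 7-week spleen. At 12 days it was 65.1 CPM [62.2 to 68.1] in liver and 163 CPM [159 to 168] in spleen. Neonatal spleen stood above the other libraries, 7-week liver lay lowest, and none of the 4 intervals overlapped. After thinning, an Itm2a UMI was found in 4.82% of 7-week liver cells, 6.97% of 7-week spleen cells, 6.57% of neonatal liver cells and 12.6% of neonatal spleen cells.

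Sox4 (ENSMUSG00000076431; chromosome 13, 28948919 to 28953713) encodes an HMG-box transcription factor of lymphoid precursors. It stood at 7.02 CPM [5.21 to 9.25] in 7-week liver, 9.22 CPM [7.90 to 10.7] in 7-week spleen, 6.52 CPM [5.62 to 7.51] in neonatal liver, and 16.3 CPM [14.9 to 17.9] in the spleen at 12 days. Neonatal spleen was again highest, and the intervals of the other 3 libraries did not all separate: 7-week liver overlapped both 7-week spleen and neonatal liver. Thinned shares of cells were 0.675%, 1.04%, 0.822% and 1.79% in the same order.

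Cd24a (ENSMUSG00000047139; chromosome 10, 43578284 to 43584265) encodes the heat-stable antigen, a surface glycoprotein lost as thymocytes mature and also made by B cells and erythroid cells. It stood at 2.53 CPM [1.5 to 3.99] in 7-week liver, 2.72 CPM [2.02 to 3.58] in 7-week spleen, 5.69 CPM [4.85 to 6.63] in neonatal liver, and 6.71 CPM [5.82 to 7.70] in the spleen at 12 days. The 2 ages separated and the 2 tissues of each age overlapped. Of its 202 UMIs in neonatal spleen, 25 lay in a single cell, whereas no cell of the other libraries held more than 6. In neonatal liver, Cd24a was found in 0.452% of the thinned kept cells, against 16.7% of those of the removed other-lineage clusters. The 4 erythroid markers summed to 0.421, 3.95, 2.03 and 220 CPM in 7-week liver, 7-week spleen, neonatal liver and neonatal spleen. Neonatal spleen was thus highest for both Cd24a and erythroid RNA. The other libraries did not keep the same order: neonatal liver had more Cd24a than 7-week spleen but less erythroid RNA. The part of such RNA in the Cd24a level was not tested.

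Tox (ENSMUSG00000041272; chromosome 4, 6686353 to 6991557) encodes an HMG-box nuclear factor needed to make CD4 T cells in the thymus. Its level was 94.0 CPM [87.0 to 101] in 7-week liver, 145 CPM [139 to 150] in 7-week spleen, 119 CPM [115 to 123] in neonatal liver, and 146 CPM [141 to 150] in the spleen at 12 days. The 2 spleen libraries overlapped, and 7-week liver was lowest. Hivep3 (ENSMUSG00000028634; chromosome 4, 119733784 to 120138045) encodes the zinc finger protein Schnurri-3. It stood at 14.5 CPM [11.8 to 17.5] in 7-week liver, 37.2 CPM [34.5 to 40.1] in 7-week spleen, 15.1 CPM [13.8 to 16.6] in neonatal liver, and 29.7 CPM [27.8 to 31.7] in the spleen at 12 days. Both liver libraries lay below both spleen libraries, and the 2 liver intervals overlapped. Tox and Hivep3 each overlap another annotated gene, Gm11802 and AL607142.1, both on the plus strand.

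Ets2 and Themis had other orders. Ets2 (ENSMUSG00000022895; chromosome 16, 95702075 to 95721051) encodes an ETS-family transcription factor that acts downstream of MAP kinases. It stood at 25.7 CPM [22.1 to 29.7] in 7-week liver, 19.3 CPM [17.4 to 21.4] in 7-week spleen, 19.7 CPM [18.1 to 21.4] in neonatal liver, and 12.2 CPM [10.9 to 13.5] in the spleen at 12 days. Neonatal spleen, where Sox4 and Itm2a were highest, had the lowest Ets2. Themis (ENSMUSG00000049109; chromosome 10, 28668360 to 28883818) encodes a T cell receptor signalling protein required for thymic selection. It stood at 23.2 CPM [19.8 to 27.0] in 7-week liver, 18.3 CPM [16.5 to 20.4] in 7-week spleen, 12.6 CPM [11.3 to 13.9] in neonatal liver, and 14.2 CPM [12.9 to 15.6] in the spleen at 12 days. Both 7-week libraries lay above both neonatal libraries, and within each age the tissue intervals overlapped.

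**Figure D1:**
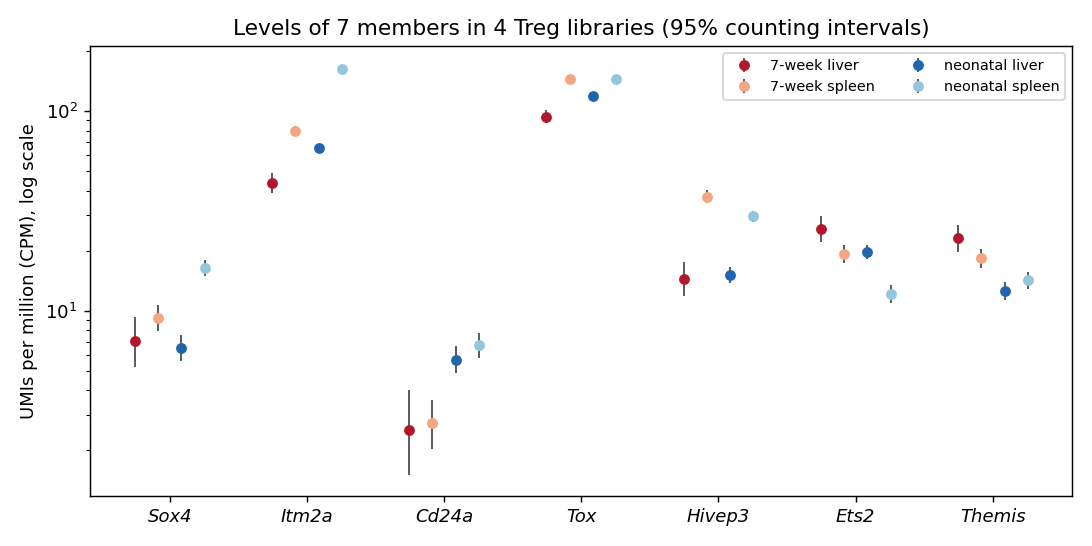
Level of each of 7 members (UMIs per 1000000, log axis) in the 4 libraries; bars are exact 95% counting intervals and levels should be compared within a gene. Neonatal spleen is highest for Sox4 (16.3 CPM) and Itm2a (163 CPM) and lowest for Ets2 (12.2 CPM), while both liver libraries are low for Hivep3 (14.5 and 15.1 CPM).

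A share of cells with a UMI also holds RNA from outside the cell. After thinning, Tox was found in 13.7% of the kept cells of 7-week spleen and 13.0% of those of neonatal spleen, against 12.0% of 50 and 13.7% of 131 cells of the removed other-lineage clusters there. For Ets2 the shares of kept cells were 2.06% and 1.27%, against 4.0% and 2.29% of removed cells. For Hivep3 they were 3.41% and 2.6%, against 2.0% and 4.58%. Itm2a was found in 12.6% of the kept cells of neonatal spleen, against 3.82% of the removed cells, and Themis in no thinned removed cell of any library. The removed clusters may contain T cell RNA of their own, so for Tox, Ets2 and Hivep3 the share of positive cells is not read as a share of expressing cells.

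The first comparison asked how liver differed from spleen at 12 days. Neonatal liver held less Sox4, Itm2a, Hivep3 and Tox RNA than neonatal spleen and more Ets2 RNA. Itm2a was 2.51-fold lower [2.38 to 2.65] in liver, Sox4 2.51-fold lower [2.12 to 2.98] and Hivep3 1.96-fold lower [1.75 to 2.20]. Without the cells of a cluster led by Dapl1 and a small one with Xcl1 among its leading genes, Sox4 was 3.79-fold lower. Tox was 1.22-fold lower [1.17 to 1.28], and Ets2 was 1.62-fold higher [1.42 to 1.85]. Cd24a (ratio 0.848 [0.686 to 1.05]) and Themis (0.883 [0.765 to 1.02]) had intervals that included 1.

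Counts of members past 2-fold use genes with a mean of at least 10 CPM over the 4 libraries, which 7415 genes passed. Of the 9 members, Itm2a, Tox, Hivep3, Ets2 and Themis passed it. Sox4, Cd24a, Rag1 and Dntt did not. In neonatal liver over neonatal spleen 1 of these 5, Itm2a, was at least 2-fold lower, where 0.984% of all tested genes were, and none was at least 2-fold higher, where 2.43% were. The median log2 ratio of the 5 was -0.29, against 0.00 over all tested genes.

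The same comparison at 7 weeks had the same directions for Itm2a, Tox, Hivep3 and Ets2 over all kept cells. Hivep3 was 2.58-fold lower [2.09 to 3.20] in 7-week liver than in 7-week spleen, Itm2a 1.83-fold lower [1.62 to 2.07] and Tox 1.54-fold lower [1.41 to 1.68]. Ets2 was 1.33-fold higher [1.11 to 1.59] and Themis 1.26-fold higher [1.04 to 1.52]. Sox4 (ratio 0.761 [0.544 to 1.05]) and Cd24a (0.929 [0.511 to 1.62]) had intervals that included 1. Among the 5 members that passed the filter, 1 (Hivep3) was at least 2-fold lower, where 0.634% of tested genes were, and none at least 2-fold higher, where 1.46% were. Their median log2 ratio was -0.62, against 0.00 over all tested genes. In the mean of the Nebl-led and Gzmb-led clusters at equal weights, the direction turned for Tox (log2 ratio 0.03) and Themis (-0.20).

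The liver-to-spleen ratios of the 2 ages were then divided by each other, with approximate 95% counting intervals. The Sox4 ratio at 7 weeks was 1.91 times [1.34 to 2.73] that at 12 days and the Itm2a ratio 1.37 times [1.20 to 1.56], so the gap between the tissues was smaller at 7 weeks for both. For Tox (0.794 [0.722 to 0.874]) and Hivep3 (0.762 [0.602 to 0.965]) the gap was wider at 7 weeks. Themis lay on opposite sides of 1 at the 2 ages, with a quotient of 1.43 [1.13 to 1.80]. For Cd24a (1.10 [0.616 to 1.95]) and Ets2 (0.820 [0.658 to 1.02]) the interval included 1. These quotients compare 4 single libraries, and the variation between mice is unknown.

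**Figure D2:**
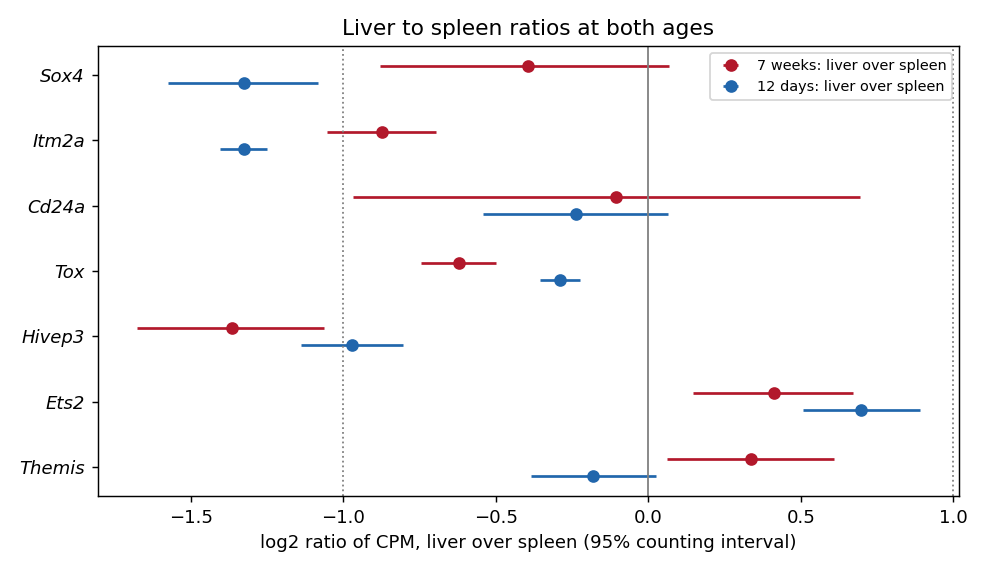
Log2 ratio of CPM, liver over spleen, for 7 members at 7 weeks (red) and 12 days (blue); bars are 95% counting intervals and dotted lines mark 2-fold. At 12 days Sox4 and Itm2a are both 2.51-fold lower in liver, at 7 weeks Hivep3 is lowest (2.58-fold lower), and Ets2 is right of 0 at both ages.

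Age was compared within each tissue. These comparisons use the same 4 libraries as the tissue comparisons, so they are not independent of them. In spleen, Itm2a was 2.04-fold lower [1.93 to 2.17] at 7 weeks than at 12 days, Sox4 1.77-fold lower [1.49 to 2.12] and Cd24a 2.47-fold lower [1.81 to 3.42]. Ets2 was 1.59-fold higher [1.37 to 1.84], Themis 1.29-fold higher [1.12 to 1.49] and Hivep3 1.25-fold higher [1.13 to 1.38], while Tox had a ratio of 0.994 [0.947 to 1.04]. Of the 5 members that passed the filter, 1 (Itm2a) was at least 2-fold lower, where 2.78% of tested genes were, and none at least 2-fold higher, where 2.93% were. In thinned cells, and with totals without abundant gene classes, the number at least 2-fold lower was 0. The shares of all tested genes in those settings are not given here.

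In liver, Themis was 1.84-fold higher [1.53 to 2.22] at 7 weeks than at 12 days and Ets2 1.30-fold higher [1.10 to 1.54]. The Themis ratio was 1.01 at equal shares of the 3 shared clusters, which held 44.3% of 7-week liver cells and 47.5% of neonatal liver cells. Cd24a was 2.25-fold lower [1.38 to 3.90], Itm2a 1.49-fold lower [1.32 to 1.69] and Tox 1.27-fold lower [1.17 to 1.38]. Sox4 (ratio 1.08 [0.772 to 1.48]) and Hivep3 (0.955 [0.763 to 1.19]) had intervals that included 1. At equal shares of the shared clusters these ratios were 0.522 for Sox4, from few 7-week liver UMIs, and 0.912 for Hivep3. Of the 5 members that passed the filter, none was at least 2-fold lower, where 4.46% of tested genes were, and none at least 2-fold higher, where 4.83% were. The median log2 ratio of the 5 was -0.07 in liver and 0.33 in spleen, against -0.02 over all tested genes in both.

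Itm2a is X-linked, and the mix of sexes differed between the ages. Xist, made from the inactive X of females, stood at 128 and 150 CPM in 7-week liver and spleen, against 302 and 302 CPM in neonatal liver and spleen. Ddx3y, a Y-linked gene, stood at 25 and 28.3 CPM in 7-week liver and spleen, against 8.45 and 7.58 CPM in neonatal liver and spleen. Its part in the age ratio of Itm2a was not tested. Depth per cell and age, and the reporter genotype and age, cannot be told apart.

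The members were found together in the same cells little more often than depth alone would give. For each of the 36 pairs and each library, the number of cells with UMIs of both genes was set against the number expected from each gene's rate within 10 bins of UMIs per cell. At least 10 such cells were expected for 8 pairs in 7-week liver, 14 in 7-week spleen, 18 in neonatal liver and 21 in neonatal spleen. The median of observed over expected over those pairs was 0.945, 1.03, 1.03 and 1.10 in that order. Intervals lay wholly above 1 for 0, 3, 3 and 5 pairs, and wholly below 1 for 1 pair, Hivep3 with Themis in neonatal spleen (0.694 [0.471 to 0.984]).

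Sox4 and Itm2a, whose upstream sequences are shown above, had the highest observed over expected in 7-week spleen and neonatal liver. This ranking covers pairs with at least 10 expected cells. In 7-week spleen 54 cells held both, where 30.4 were expected (1.78 [1.33 to 2.32]). In neonatal liver 62 cells held both, where 37.8 were expected (1.64 [1.26 to 2.10]). In neonatal spleen 226 cells held both, where 162 were expected (1.39 [1.22 to 1.59]). In 7-week liver fewer than 10 were expected and the pair was not read. With the bins taken within cell clusters, the values were 1.5, 1.18 and 1.19, so part of the excess followed the clusters.

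The second pair was Tox with Hivep3, at 1.31 [1.16 to 1.49] in 7-week spleen and 1.19 [1.07 to 1.32] in neonatal spleen. Their values in the livers, 1.09 [0.710 to 1.59] at 7 weeks and 1.12 [0.968 to 1.29] at 12 days, had intervals that included 1. Itm2a with Hivep3 stood at 1.24 [1.04 to 1.46] in 7-week spleen and 1.14 [1.02 to 1.28] in neonatal spleen. Among pairs with at least 10 expected cells, the others with intervals above 1 each did so in 1 library: Sox4 with Tox (1.19) and Sox4 with Hivep3 (1.40) in neonatal spleen, and Itm2a with Themis (1.24) and Hivep3 with Ets2 (1.34) in neonatal liver. With fewer expected, Cd24a had intervals above 1 with Sox4 (4.19, 5 cells), Itm2a (1.98, 18 cells) and Ets2 (2.58, 7 cells) in 7-week spleen. Few cells carried several members at once. After thinning, 1.22% of 7-week liver cells, 3.15% of 7-week spleen cells, 1.81% of neonatal liver cells and 3.89% of neonatal spleen cells held UMIs of exactly 2 members, and no cell held 4 or more.

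**Figure D3:**
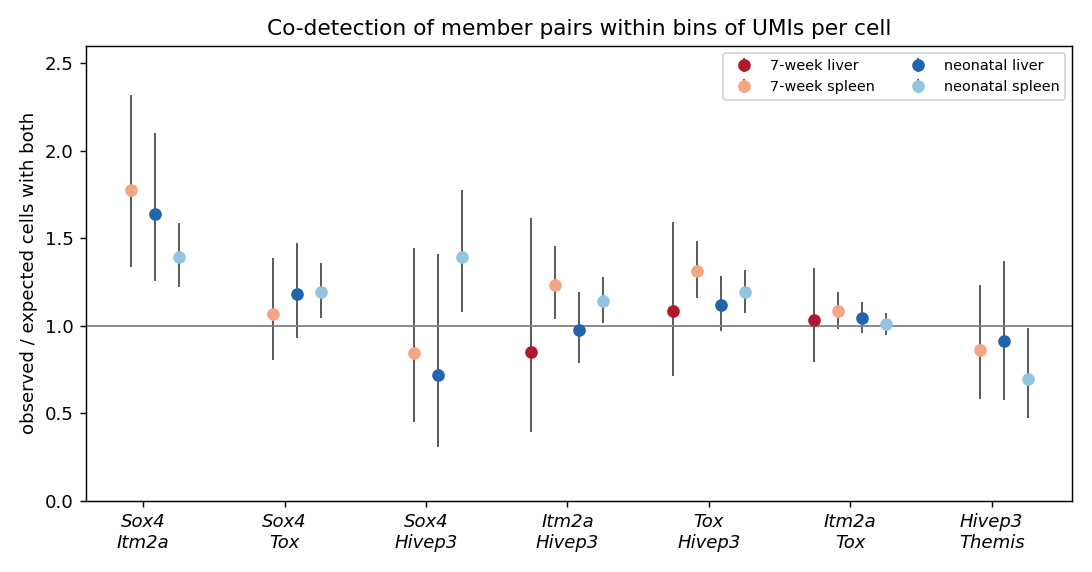
Cells with UMIs of both genes, observed over expected within bins of UMIs per cell, for 7 member pairs; bars are 95% counting intervals and pairs with fewer than 10 expected cells in a library are left out. Sox4 with Itm2a lies above 1 in 7-week spleen (1.78), neonatal liver (1.64) and neonatal spleen (1.39), and Hivep3 with Themis lies below 1 in neonatal spleen (0.694).

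Cells with an Itm2a UMI differed from the other cells of their library in genes outside the list. In thinned cells, Gzmb, which encodes the cytotoxic protease granzyme B, was lower in Itm2a-positive cells, at 444 against 762 UMIs per 1000000 in neonatal liver (ratio 0.582 [0.489 to 0.689]) and at 71.8 against 166 in neonatal spleen (0.432 [0.317 to 0.577]). Klrg1, a receptor of terminally differentiated effector cells, had ratios of 0.414 [0.322 to 0.525] in neonatal liver and 0.228 [0.153 to 0.327] in neonatal spleen. Both genes were thus lower in Itm2a-positive cells at 12 days. At 7 weeks the Klrg1 intervals included 1, and none of the 107 Itm2a-positive cells of 7-week liver held a Gzmb UMI (upper bound of the ratio 0.607).

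The same cells held more RNA of genes of resting cells. Ccr7, the receptor that guides resting cells to lymph nodes, had ratios of 1.45 [1.05 to 1.95] in 7-week liver, 1.53 [1.25 to 1.87] in 7-week spleen, 2.33 [1.97 to 2.75] in neonatal liver and 1.26 [1.07 to 1.47] in neonatal spleen. Id3, an inhibitor of E proteins, had ratios of 2.29 [1.43 to 3.50], 1.27 [1.06 to 1.52], 1.97 [1.46 to 2.61] and 1.22 [1.07 to 1.37] in the same order. Both genes were above 1 with their whole interval in all 4 libraries. Egr2, induced by receptor signals, had ratios of 2.39 [1.55 to 3.56] in 7-week spleen and 2.50 [1.61 to 3.78] in neonatal spleen. Foxp3 had ratios of 0.857 to 0.987, each with an interval that included 1.

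Cells with a Sox4 UMI were few after thinning, 15 in 7-week liver, 58 in 7-week spleen, 40 in neonatal liver and 97 in neonatal spleen. Their Gzmb ratio was 0.0669 [0.00810 to 0.242] in neonatal liver and 0.0657 [0.00166 to 0.367] in neonatal spleen. Their Ccr7 ratio was 4.04 [2.38 to 6.43] in 7-week liver and 3.45 [2.37 to 4.88] in neonatal liver. In both spleen libraries the Ccr7 interval included 1.

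To place the members among cell states, the cells of all libraries were clustered together without the 9 members among the clustering genes, and each cluster is called by its leading gene. The Grifin-led cluster had raised Ccr7, Klf2 and Bcl2, markers of resting Treg cells, and the Egr2-led cluster was led by Egr2, Egr3 and Nr4a1, which are induced by receptor signals. Together these 2 clusters held 6.96% of neonatal liver cells and 48.3% of neonatal spleen cells. They held 16.7% of the Itm2a UMIs, 18.0% of the Sox4 UMIs and 7.97% of the Hivep3 UMIs of neonatal liver. In neonatal spleen they held 70.3% of the Itm2a UMIs, 74.2% of the Sox4 UMIs and 62.2% of the Hivep3 UMIs. The 2 clusters differed for Hivep3 there. The Egr2-led cluster held 52.8% of its UMIs in 17.7% of the cells, and the Grifin-led cluster 9.40% in 30.7%. The neonatal spleen RNA of these 3 genes therefore lay mostly in clusters that were scarce in neonatal liver.

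In the other libraries the Sox4 UMIs lay mostly elsewhere. In neonatal liver the Dapl1-led cluster, with raised resting markers, held 39.7% of the Sox4 UMIs in 10.1% of the cells, at 37.6 CPM [29.6 to 47.2]. In 7-week liver the Ly6c1-led cluster held 68.0% of the Sox4 UMIs in 35.4% of the cells, at 17 CPM [11.8 to 23.8], and in 7-week spleen it held 39.9% in 31.2% of the cells, at 13.5 CPM [10.5 to 17.1]. The libraries were clustered without integration, so a cluster that comes almost wholly from a single library cannot be told apart from an effect of that library.

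Within clusters the 12-day difference took a different form for each gene. Itm2a was 2.51-fold lower in neonatal liver over all cells, but within 9 clusters its liver-to-spleen ratio was below 1 in 5, with a median of 0.974 and a range of 0.277 to 1.31. Its whole interval lay below 1 in 4 clusters and above 1 in 1. Itm2a was 206 CPM in liver and 321 CPM in spleen in the Egr2-led cluster, but 202 and 161 CPM in the Grifin-led cluster and 34.1 and 35.0 CPM in the Gzmb-led cluster. The widest gap was in the cycling-like cluster led by Hist1h2ap, at 36.6 CPM in liver and 132 CPM in spleen. Sox4 could be read in 6 clusters and was below 1 in 3, with a median of 1.06. Its whole interval lay below 1 in 2 clusters and above 1 in 1. Hivep3 was below 1 in 7 of 8 clusters, 5 of them with the whole interval, at a median of 0.488. Among those 5, the Grifin-led cluster had 4 liver UMIs of Hivep3 and the Gm17494-led cluster 7. The Egr2-led cluster, with 52.8% of the neonatal spleen Hivep3 UMIs, differed little, at 66.6 CPM in liver and 68.5 CPM in spleen. Its ratio was 0.972 [0.653 to 1.40]. Ets2 was not below 1 in any of 9 clusters, 3 of them with the whole interval above 1, at a median of 1.69.

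Weighting the shared clusters by equal shares of cells in both tissues gave the same picture. At 12 days, over 9 clusters, the ratio was 0.889 for Itm2a, 0.924 for Sox4, 0.933 for Tox, 0.668 for Hivep3, 1.60 for Ets2 and 0.971 for Themis. At 7 weeks, over 5 clusters, it was 0.876 for Itm2a, 1.34 for Sox4, 0.745 for Tox, 0.555 for Hivep3, 1.42 for Ets2 and 1.05 for Themis. The shared clusters held 95.7% of liver and 89.3% of spleen cells at 12 days, but 87.5% and 73.2% at 7 weeks. Left out at 7 weeks were the Grifin-led and Egr2-led clusters, with 27.2% of the Itm2a and 33.0% of the Hivep3 UMIs of 7-week spleen. Within the shared clusters, the Hivep3 and Ets2 differences between the tissues were thus present at equal shares at both ages. Those of Itm2a and Sox4 were within 1.14-fold there, apart from Sox4 at 7 weeks. Clusters were made from the expression of all other genes in these same cells and are a description, not a test.

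**Figure D4:**
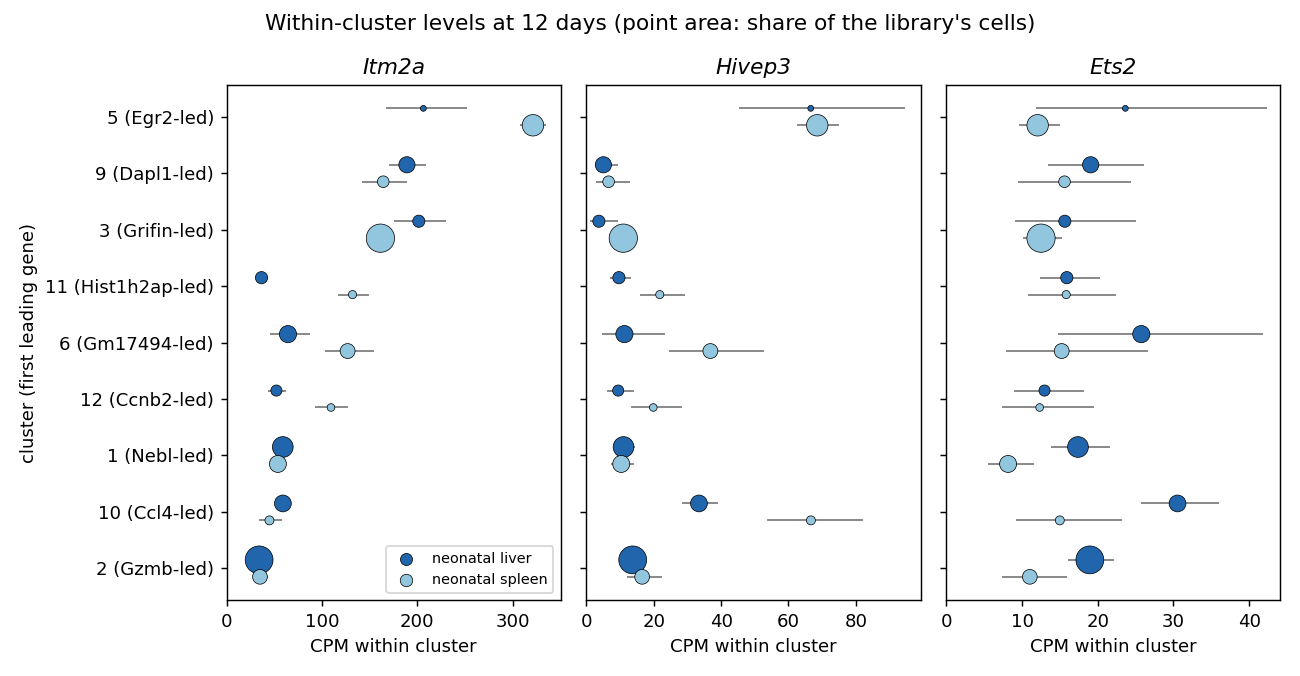
Itm2a, Hivep3 and Ets2 levels (CPM within a cluster) in neonatal liver (dark) and neonatal spleen (light) for 9 clusters with at least 50 cells in both; bars are 95% counting intervals and point area is the cluster's share of its library's cells. Itm2a is high in both tissues in the Egr2-led, Dapl1-led and Grifin-led clusters, of which the Egr2-led and Grifin-led clusters are large in spleen only, while Ets2 points of liver lie at or to the right of those of spleen.

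Over 40 groups of cells, each a cluster within a library, the levels of Sox4 and Itm2a went together (Pearson r 0.774), as did those of Tox and Hivep3 (0.777), whereas Cd24a with Themis had r = -0.278. These groups share libraries, depth and the clustering, so the values are descriptions. Among 4779 genes, the profile most like that of Sox4 was Igf2r (0.884), followed by Gpr83 (0.848). The profile most like that of Itm2a was Gsta4 (0.858), that of Hivep3 was Tnfsf11 (0.808) and that of Tox was Jarid2 (0.808). This measure was chosen after the data were seen. From cell to cell, with the summed thinned counts of the 9 members, the 10 genes most alike had Pearson correlations of 0.0259 to 0.0934. They were led by Id3 (0.0337 to 0.0602), and the most opposed was Ly6a (-0.0521 to -0.0350), both too weak to be read as a finding.

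Other genes listed for thymocytes and early emigrants were also mostly lower in neonatal liver than in neonatal spleen. Of 23 such genes 18 passed the filter, and 14 of these had a ratio below 1, as did 3737 of the 7415 genes tested, with a median log2 ratio of -0.34. At least 2-fold lower (0.984% of those tested) were 2, Id3 (4.14-fold [3.97 to 4.33]) and Bach2, a repressor that keeps T cells resting (2.66-fold [2.29 to 3.10]). At 7 weeks Id3 was 2.81-fold lower [2.6 to 3.05] in liver and was the 1 gene past 2-fold (0.634% of those tested were lower by as much), with a median of -0.01. In 7-week liver over neonatal liver, 14 of 18 were above 1 (3582 of the 7415 genes tested) and 3 at least 2-fold higher (4.83% of those tested), namely St8sia6 (2.94-fold), Bach2 (2.91-fold) and the chromatin organiser Satb1 (2.51-fold), at a median of 0.57. In 7-week spleen over neonatal spleen none passed 2-fold and the median was 0.18.

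E proteins drive many thymocyte genes and are held back by Id proteins. Id2 was 2.57-fold higher [2.33 to 2.85] in 7-week liver than in 7-week spleen, at 106 against 41.4 CPM. At 12 days it was 3.58-fold higher [3.37 to 3.80] in liver, at 167 against 46.6 CPM. Id3, the related inhibitor, went the other way, at 99.9 CPM in 7-week liver against 281 CPM in 7-week spleen, and at 12 days 87.8 CPM in liver against 364 CPM in spleen. Of the 6 listed genes of this axis, 4 passed the filter. In both tissue comparisons 1 was at least 2-fold higher, Id2, and 1 lower, Id3, which is also in the thymocyte list. At 7 weeks 1.46% of tested genes were at least 2-fold higher and 0.634% lower, and at 12 days 2.43% and 0.984%.

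All 14 genes listed for T cell maturation outside the thymus and exit from it passed the filter. In 7-week liver over neonatal liver all 14 were above 1, as were 3582 of the 7415 genes tested, and 5 at least 2-fold higher (4.83% of those tested), among them Cxcr4 (8.31-fold [6.45 to 10.8]), Ly6c1 (4.85-fold [4.43 to 5.31]) and Il7r, the receptor for a survival cytokine (2.18-fold [2.07 to 2.30]). In 7-week spleen over neonatal spleen 10 of 14 were above 1 and 6 at least 2-fold higher (2.93% of those tested), among them Cxcr4 (7.50-fold [5.84 to 9.73]), Ly6a (2.69-fold [2.6 to 2.77]) and the class I genes H2-Q6 (2.30-fold) and H2-Q7 (2.05-fold), near-identical genes whose counts are uncertain. The median log2 ratio was 0.67 in liver and 0.41 in spleen. In neonatal liver over neonatal spleen the list was split, with Ly6a 3.70-fold higher [3.59 to 3.81] and the survival gene Bcl2 3.04-fold lower [2.86 to 3.24] and Ly6c1 2.14-fold lower [1.97 to 2.32].

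Among 9 measured genes of the receptor signal response, 3 were at least 2-fold lower in 7-week liver than in 7-week spleen, where 0.634% of tested genes were: Egr2 (ratio 0.0970), Tnfrsf9 (0.327) and Nr4a1 (0.498). In neonatal liver over neonatal spleen none passed 2-fold, and the median log2 ratios were -0.19 at 7 weeks and -0.24 at 12 days. Of 12 listed close relatives of the members, 7 passed the filter. Tox2 was 2.39-fold lower [1.81 to 3.19] in 7-week liver than in 7-week spleen, at 8.42 against 20.1 CPM, and 2.6-fold lower [1.99 to 3.45] than in neonatal liver. None of the other relatives that passed the filter reached 2-fold in any of the 4 comparisons, and Sox11 and Tox3 had no UMI in any library.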

How the data were processed

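Each deposited matrix holds whole UMI counts of genes in cell barcodes. Per the file headers they came from Cell Ranger 4.0.0. The submitters' processing notes name the build mm10 and Seurat 4.0.2. The annotation release and the treatment of strand are not given in the sources used here. GENCODE vM21 on GRCm38 gave positions. Cells needed 500 or more detected genes and no more than 10% of UMIs from mitochondrial genes. Scrublet's automatic threshold marked 2, 0, 0 and 0 cells in 7-week liver, 7-week spleen, neonatal liver and neonatal spleen and had not worked, so the highest scores were marked at 0.8% per 1000 cells, a rule chosen after this was seen. Cells were clustered together with scanpy 1.11.5 and leidenalg 0.10.2 (2000 variable genes without the members, 30 principal components, 15 neighbours, resolution 1.0, no integration), which gave 19 clusters. A cluster was called like a cell type only from listed markers, by limits set after the data were seen. The 3 clusters led by Lyz2, H2-Aa and Cd79a, of other lineages, were removed, and 2, 53, 48 and 197 cells with them.

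UMIs were summed per library and divided by the total of the kept cells. Each group is 1 library, so groups were compared by ratios and intervals without a test. Genes were counted past 2-fold among those with a mean of at least 10 CPM. Intervals are 95% and cover counting error only. The ratio and co-detection steps were run on simulated counts with known fold changes. Those counts had counting error only, without variation between mice or libraries, so the run checks the calculation and not the results. The members and gene lists were chosen with earlier results of these data known. All 9 members are named, with listed genes past 2-fold and the 10 most alike and 5 most opposed genes from cell to cell. Alternatives were the scaling (TMM factors from edgeR 4.0.16, or totals without abundant gene classes), the cells kept, thinning, the 10 highest cells left out, and equal weights of clusters. T cell receptor sequences were not analysed here.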

Additional observations from a re-analysis of the deposited data

Results flagged for a closer look

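Themis was the 1 member whose liver-to-spleen ratio lay on opposite sides of 1 at the 2 ages. It was 1.26 [1.04 to 1.52] at 7 weeks and 0.883 [0.765 to 1.02] at 12 days, a quotient of 1.43 [1.13 to 1.80]. At equal shares of the shared clusters the ratios were 1.05 at 7 weeks and 0.971 at 12 days, and with clusters weighted equally the 7-week log2 ratio was -0.20 and the 12-day one 0.15. The quotient's interval excludes 1 for counting error only, the 12-day interval includes 1, and with 1 library per group the difference was not tested.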

How the results depend on the processing

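Of 308 single-gene log2 ratios under 11 alternatives, 253 stayed within their counting interval, 52 moved out of it, and 3 that were at least 2-fold changed direction. These 3 came with 2 clusters (led by Nebl and Gzmb) weighted equally: Sox4 (0.66) and Itm2a (0.068) in neonatal liver over neonatal spleen, and Itm2a (0.030) in 7-week spleen over neonatal spleen. In the same setting 3 smaller ratios with intervals off 1 changed direction: Tox (0.03) and Themis (-0.20) in 7-week liver over 7-week spleen, and Themis (-0.09) in 7-week liver over neonatal liver. That weighting leaves out the clusters in which Sox4 and Itm2a were highest. The liver-to-spleen ratio of Ets2 kept its direction in all 11 alternatives at both ages (log2 0.29 to 0.54 at 7 weeks, 0.64 to 0.92 at 12 days), as did Hivep3 (-1.66 to -0.85 and -1.35 to -0.12). Members at least 2-fold lower in 7-week liver than 7-week spleen numbered 2 with clusters weighted equally and 0 at equal cell shares. In neonatal liver over neonatal spleen they numbered 2 with totals without abundant gene classes, 2 in thinned cells and 2 without the 10 highest cells, but 0 with clusters weighted equally and 0 at equal cell shares. In 7-week liver over neonatal liver there was 1 with clusters weighted equally. In 7-week spleen over neonatal spleen there were 0 with totals without abundant gene classes, 0 in thinned cells, 0 with clusters weighted equally and 0 at equal cell shares. The cause of these changes was not tested. The share of all tested genes past 2-fold in each of these settings is not given here, so the counts describe the members only. Median co-detection in thinned cells was 0.969 in neonatal liver and 1.13 in 7-week spleen. Without the filter on low genes, 26.4%, 26.7%, 37.2% and 29.3% of genes passed 2-fold in 7-week liver over 7-week spleen, neonatal liver over neonatal spleen, 7-week liver over neonatal liver and 7-week spleen over neonatal spleen. The alternative at equal cell shares was chosen after seeing the data. So was that without the Dapl1-led cluster and the small one with Xcl1 among its leading genes. No paired analysis was possible because each group is 1 library. Counts of 0 to 5 UMIs for Rag1 and Dntt allow no ratio.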
